A study of Rattus norvegicus with 10 samples.

Results

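The genes of cholesterol and fatty acid synthesis were followed through the FGF2 response of rat lens epithelial explants. They were chosen by name as 33 genes in 5 groups by role, and each gene was represented by its brightest probe set among those to which the array annotation gives that symbol alone. This rule gave a probe set for 32 of the 33 genes, out of 14217 genes with a symbol and 31042 probe sets tested. The remaining one, Hmgcs1, is not listed under its own symbol in the annotation used and was not analysed here. Explants of lens epithelium came from rat pups 3 days old and were cultured 6 to a dish. All groups spent a night in 5 ng/mL FGF2. The 0 hr group was taken at that point, and the 2, 4, 12, and 24 hr groups were taken after that many hours in 100 ng/mL FGF2, a concentration that drives differentiation into fiber cells. Each group has 2 arrays, made from RNA of separate cultures after amplification, which makes 10 arrays. Following the study, 2 and 4 hr are called the early phase and 12 and 24 hr the late phase.

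Cholesterol is built from acetyl-CoA through mevalonate, isoprenoids, squalene, and lanosterol, and fatty acids are built from the same precursor by acetyl-CoA carboxylase and fatty acid synthase. Transcription of both sets of enzymes is driven by the SREBP factors, which Scap carries out of the endoplasmic reticulum when sterols are low and which the Insig proteins hold back when sterols are high. When sterols are plentiful, oxysterols instead activate the LXR receptors, whose targets move cholesterol out of the cell. Lens fiber cells elongate many times over and their plasma membranes are unusually rich in cholesterol, and rats with defects of sterol synthesis can develop cataract.

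The values are linear RMA intensities, analyzed as log2 without further normalization, and a gene was called up- or down-regulated at an adjusted p under 0.05 (limma, Benjamini-Hochberg over all 31042 probe sets). Median intensity ranged from 97.99 to 100.3 over the 10 arrays. Among the 32 members only Fads2, at intensities of 36.2 to 49.3, belonged to the dimmest 33.3% of probe sets. The 7 lens epithelial markers averaged between 6.52 (Six3) and 14.54 (Cryaa) on the log2 scale, with Foxe3 at 9.56 and Pax6 at 12.97. The adipocyte markers Adipoq, Plin1, and Fabp4 averaged between 3.88 and 4.41. Markers of other cells were mixed. Ptprc of leukocytes, Pecam1 of endothelium, and Rcvrn of retina averaged 3.96, 4.35, and 4.05, whereas Tek (9.25) and Kdr (8.35) of endothelium, Col1a2 of fibroblasts (10.42), and Hbb of blood (10.86) were brighter. Some of these moved with the late phase: Tek fell by 1.63 at 12 hr and by 1.57 at 24 hr, Kdr rose by 1.21 at 12 hr, and late against early Hbb, Pdgfrb, and Col1a1 fell by 0.84, 0.60, and 0.38. Lens markers moved too: 3 of 7 epithelial markers were down at 24 hr (lowest -1.18) and 5 of 8 fiber markers at 12 hr (median -0.95). Of all probe sets 10.9% were down at 24 hr and 10% at 12 hr. The part of any of these markers in the results below was not tested. Several gaps in the design touch every result below. Array file numbers in the supplementary material fall into 3 blocks that hold the 0 hr arrays, the 2 and 4 hr arrays, and the 12 and 24 hr arrays. The labels name no batch, but any difference between these blocks cannot be told apart from time, except for 4 against 2 hr and 24 against 12 hr, which lie within a block. Without time-matched explants kept at the low dose, the effect of FGF2 cannot be told apart from hours in culture. In whole explants, fewer cells of a type and less RNA per cell cannot be told apart either.

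The promoters of 4 members are shown because these genes carry the main patterns described below: Hsd17b7 and Idi1 had the largest log2 fold changes of the sterol enzymes at 24 hr, Mvk holds evenly spaced copies of a motif that most sterol enzymes held, and Acsl4, which peaked in the early phase, holds none. Each is the stretch of 250 bases before the annotated start, 5′ to 3′ on the strand of the gene, from RefSeq annotation of the build GRCr8. Capitals mark ATTGG or its reverse complement CCAAT, the CCAAT box that the factor NF-Y recognizes.
Hsd17b7 (chr13:84722755-84723004, minus strand): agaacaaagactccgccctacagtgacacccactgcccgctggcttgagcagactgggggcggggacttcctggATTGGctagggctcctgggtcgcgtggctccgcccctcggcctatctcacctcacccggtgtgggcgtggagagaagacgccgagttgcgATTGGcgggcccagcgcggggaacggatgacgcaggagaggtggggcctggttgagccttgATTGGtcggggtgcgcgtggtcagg
Idi1 (chr17:66547525-66547774, minus strand): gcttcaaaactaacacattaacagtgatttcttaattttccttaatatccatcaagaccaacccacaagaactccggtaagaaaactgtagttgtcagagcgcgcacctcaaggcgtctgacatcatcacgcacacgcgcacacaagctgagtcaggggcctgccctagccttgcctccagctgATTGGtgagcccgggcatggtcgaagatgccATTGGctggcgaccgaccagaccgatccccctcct
Mvk (chr12:47819504-47819753, minus strand): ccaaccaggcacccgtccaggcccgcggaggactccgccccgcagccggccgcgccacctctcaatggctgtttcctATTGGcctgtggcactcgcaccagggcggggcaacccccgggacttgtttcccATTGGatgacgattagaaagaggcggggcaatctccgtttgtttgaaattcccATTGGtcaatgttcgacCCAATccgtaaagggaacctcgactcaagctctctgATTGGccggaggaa
Acsl4 (chrX:110803262-110803511, minus strand): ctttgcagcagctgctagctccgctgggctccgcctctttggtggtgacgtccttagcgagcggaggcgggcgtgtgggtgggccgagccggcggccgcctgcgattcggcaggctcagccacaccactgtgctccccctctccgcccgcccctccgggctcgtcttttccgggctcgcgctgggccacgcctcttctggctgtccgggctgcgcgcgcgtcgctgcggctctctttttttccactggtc
RefSeq promoters were at hand for 26 of the 33 genes, 1 of which (Srebf1) has 2 starts and was counted by the one with more matches. In windows of 300 bases, 250 before the start to 50 after it, searched on both strands, the CCAAT box ATTGG was present in 19 of 26 promoters (73.1%, against 37.5% of all 33469 promoters in the table). Among the sterol enzymes 10 of 13 held it, and 8 of 13 held at least 2 copies (61.5%, against 11.2% of all promoters). In Mvk, 4 copies on the same strand lie exactly 53 bases apart from one to the next, with 1 more on the opposite strand. Among the fatty acid enzymes 5 of 8 held the motif and 1 of 8 held at least 2 copies. The 4 printed promoters do not stand for a link between motif and direction, which was not tested. Mvk and Idi1 held the motif and were up late against early, but Dhcr7, Cyp51, Scap, and Scd were also up and held no copy. Acsl3 and Acss2 held 1 copy each and were down late against early, as was Acsl4 without a copy. The GC box GGGCGG, bound by Sp1 and related factors, was present in 21 of 26 (80.8%, against 33.1%). The 9-letter sterol element TCACNCCAC was in 0 of 26 windows and in 1.12% of all promoters. At so low a share, its absence from 26 windows says nothing particular about these genes. No CCAAT box shared letters with a GC box in these windows. A match is a description of the letters and not a binding site. The promoters of the whole table were counted by start and were not matched to the members in base content or expression. The shares therefore do not set these genes apart from other genes of like promoters.

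The 2 arrays of a time point differed far more at 2 and 4 hr than at the other times, and for these genes more than for most. Replicate 2 lay below replicate 1 in 29 of 32 members at 2 hr and again in 29 of 32 at 4 hr, whereas 54.2 and 49.7% of all probe sets did so. The median difference, replicate 2 minus replicate 1, was -0.46 at 2 hr and -0.50 at 4 hr on the log2 scale, against -0.02 and 0.00 over all probe sets. Differences of more than 0.5 in size were found in 13 members (40.6%) at 2 hr and 16 members (50%) at 4 hr, compared to 7.57 and 8.69% of all probe sets. At 0, 12, and 24 hr 0 members differed by that much, and 1.26, 1.09, and 3.08% of all probe sets did.

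The sterol enzymes showed this most. All 15 were lower in replicate 2 at both early times, with median differences of -0.54 at 2 hr and -0.93 at 4 hr. Idi1, Msmo1, and the sterol carrier Stard4 differed by -1.30 each at 4 hr, and Scd differed by -1.22 at 2 hr. The exceptions were few. Insig2, Acsl3, and Acsl4 were higher in replicate 2 at 2 hr, and Srebf1, Acaca, and Elovl6 were so at 4 hr, all by at most 0.21. At 0 hr the order was the other way in 29 of 32 members, as one-sided as at the early times. Replicate 2 was lower there in 0 of 15 sterol enzymes and in 47.3% of all probe sets. The members' median difference at 0 hr was smaller, at 0.13. The labels do not say whether the 2 and 4 hr arrays of the same number came from 1 culture, so the pattern at the 2 early times cannot be counted as seen independently in each.

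**Figure D1:**
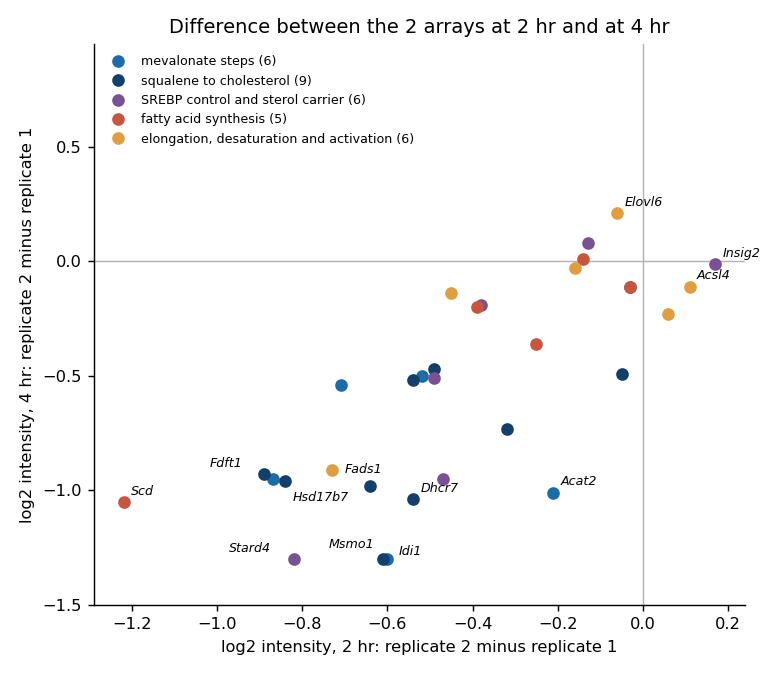
Difference in log2 intensity between the 2 arrays of a time point (replicate 2 minus replicate 1) at 2 hr (horizontal axis) and at 4 hr (vertical axis) for 32 genes, colored by role, with 12 genes named. The 15 sterol enzymes lie in the lower left, below 0 on both axes, with medians of -0.54 and -0.93.

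Expressed relative to the mean of the 0 hr arrays, the mean log2 intensity of the 15 sterol enzymes was -0.09 and 0.09 in replicates 1 and 2 at 0 hr, 0.13 and -0.40 at 2 hr, 0.23 and -0.56 at 4 hr, 0.38 and 0.35 at 12 hr, and 0.34 and 0.40 at 24 hr. Thus the replicate 1 arrays of the early phase lay above both 0 hr arrays and the replicate 2 arrays lay below them, and the 4 late arrays lay above every early and 0 hr array. The 11 fatty acid enzymes averaged 0.02 and -0.27 at 2 hr, -0.01 and -0.28 at 4 hr, 0.05 and 0.03 at 12 hr, and 0.06 and 0.13 at 24 hr. The 6 control and carrier genes averaged 0.23 and -0.12 at 2 hr, 0.22 and -0.26 at 4 hr, 0.37 and 0.33 at 12 hr, and 0.34 and 0.35 at 24 hr.

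**Figure D2:**
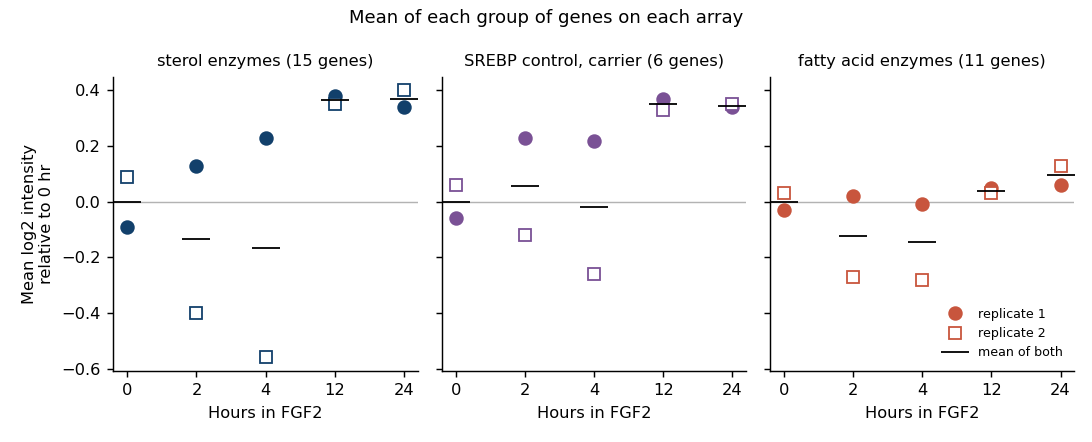
Mean log2 intensity of each group of genes on each array, relative to the mean of the 0 hr arrays, against hours in FGF2; filled circles are replicate 1, open squares replicate 2, and bars the mean of both. The sterol enzymes lie at 0.23 and -0.56 on the 4 hr arrays and between 0.34 and 0.40 on the 4 late arrays.

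Other measurements moved with this difference. The log2 5′/3′ ratio of the Actb control probe sets, which falls as RNA is shortened or incompletely copied, was -1.68 and -2.13 in replicates 1 and 2 at 2 hr and -1.37 and -2.08 at 4 hr, so that the replicate 2 arrays of both times were the lowest of all 10. The other arrays ranged from -1.12 (0 hr) to -1.88 (24 hr), and at 24 hr, where the ratios were -1.75 and -1.88, the sterol enzymes were not low. The same ratio of Gapdh was also lowest on these arrays, with -0.21 and -0.27 at 2 hr and -0.17 and -0.30 at 4 hr. That of Hexokinase did not follow, with -1.12 and -1.26 at 2 hr and -1.34 and -1.31 at 4 hr. Its lowest value (-1.48) was in 12 hr replicate 2. The replicate 2 arrays of 2 and 4 hr had higher intensities of the fiber markers, 7 of 8 of which were higher than in replicate 1 at each time (medians of 0.59 at 2 hr and 0.43 at 4 hr). At 12 hr all 8 fiber markers were lower in replicate 2 (median -0.42), and there the sterol enzymes had a median difference of -0.01. The part of either in the difference was not tested. A fit with the Actb ratio as a covariate cannot test it, because within time points the ratio differed most between the early arrays. Its slope thus rests largely on the replicate difference itself. That fit was chosen after the data were seen and called 8 members up and 1 down at 2 hr and 8 up and 4 down at 4 hr. Of all probe sets it called 4.27% up and 3.64% down at 2 hr and 10.3% up and 9.73% down at 4 hr.

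A few genes of cholesterol efflux and lipid storage differed the other way between the same arrays. Abca1, the transporter that loads cholesterol onto lipoprotein and a classic LXR target, had intensities of 874 and 706 at 0 hr, 2119 and 2692 at 2 hr, 1581 and 3437 at 4 hr, 638.6 and 532.9 at 12 hr, and 317 and 279.8 at 24 hr. The 4 hr arrays of Abca1 thus differed by more than those of Hsd17b7, and with replicate 2 on top. Abcg1, a second efflux transporter, read 988.5 and 1224 at 2 hr and 943 and 1375 at 4 hr, and Mylip, an LXR-induced ubiquitin ligase, read 1029 and 1401 at 2 hr and 824.7 and 1448 at 4 hr. Dgat2, which makes triglyceride, read 592.6 and 817.4 at 2 hr and 611.3 and 1497 at 4 hr. All 4 genes were higher in replicate 2 at both early times. These genes were picked out for their values, and the lists they come from did not share the pattern. Replicate 2 was lower in 10 of 18 genes of sterol uptake, efflux, and LXR response at each early time, and in 14 and 12 of 22 other genes of fatty acid and lipid synthesis at 2 and 4 hr. Apoe, another LXR target, read 937 and 369 at 2 hr and 492 and 412 at 4 hr.

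Against 0 hr, few of the 32 members were called at any single time. Their share lay furthest from that of all probe sets among falls at 4 hr (21.9% of members) and then among rises at 24 hr (15.6%). At 2 hr 2 members were up-regulated and 3 down-regulated, where 8.61% of all probe sets were up and 8.88% down. At 4 hr 4 were up and 7 down (all probe sets, 11.9% up and 11.9% down). At 12 hr 4 were up and 3 down (8.94% and 10%), and at 24 hr 5 were up and 3 down (9.29% and 10.9%). At unadjusted p under 0.05 the counts up and down were 3 and 7 at 2 hr, 6 and 8 at 4 hr, 9 and 4 at 12 hr, and 10 and 3 at 24 hr. The members' median log2 fold changes were -0.12, -0.13, 0.35, and 0.26 at 2, 4, 12, and 24 hr, when that of all probe sets lay between -0.02 and 0.03. In all 15 members were called at 1 or more times against 0 hr and 17 at none, and 40.8% of all probe sets were called at 1 or more times. Acss2 and Elovl6 were down-regulated at all 4 times, and 0 members were up-regulated at all 4.

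The standard errors of these tests pool the 5 time points, and so carry the spread between the early arrays. Fitted without the 2 and 4 hr arrays, a choice made after the data were seen, 18 members were up and 4 down at 12 hr (all probe sets, 12.5% up and 14.3% down) and 13 were up and 4 down at 24 hr (13.1% and 15.1%). Of the 15 sterol enzymes 10 were then up at 12 hr and 7 at 24 hr, with 2 down at each time. The fold changes themselves did not move: Fdps, for example, had a log2 fold change of 0.72 at 12 hr in both fits and was called, with an SE of 0.11 (adjusted p = 0.003), only without the early arrays. Sqle was up by 0.92 at 12 hr, Msmo1 by 0.51, and Insig1 by 0.56, with adjusted p of 4.6e-04, 0.003, and 0.0033, and none of these 3 was called in any comparison of the fit with all arrays. The number of sterol enzymes called in the late phase thus depended on whether the early arrays entered the error.

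**Figure D3:**
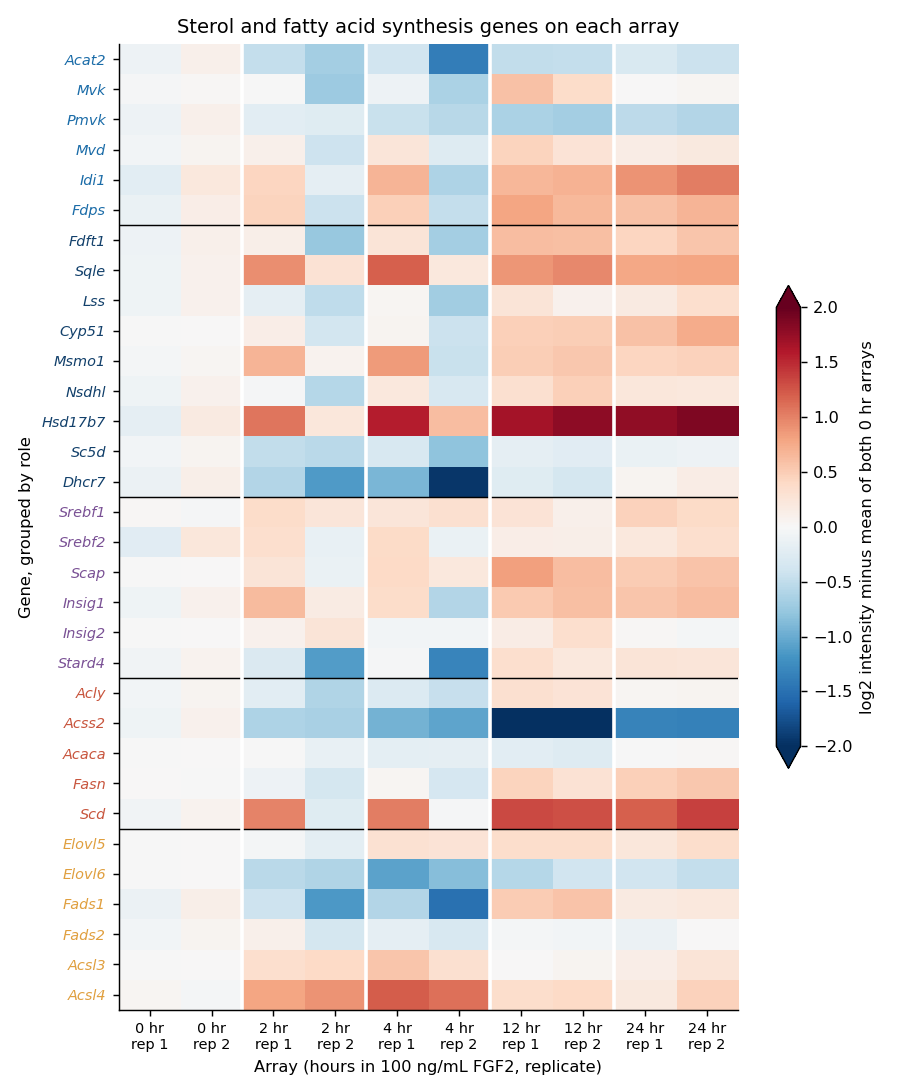
Log2 intensity of the 32 genes (rows, grouped by role) on each of the 10 arrays (columns, in order of hours in FGF2), relative to the mean of both 0 hr arrays; red is higher and blue lower, and values past 2 in size are drawn at the end of the scale. The replicate 2 columns at 2 and 4 hr are bluer than their replicate 1 neighbors in 29 of 32 rows each.

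By limma the late and early phases differed for most members, although this comparison rests on the early arrays. Late against early, 18 members were up-regulated and 4 down-regulated (56.2 and 12.5% of members), where 19.9% of all probe sets were up and 19.3% down. The test took the 4 early arrays as independent. Same-numbered 2 and 4 hr arrays deviated together (r = 0.33 over all probe sets), so its standard errors may be too small for these genes. The median log2 fold change was 0.41, against 0.03 over all probe sets, and 28 of 32 members were positive. In 15 members all 4 late arrays lay above all 4 early arrays, as in 16.2% of all probe sets, and in 3 they lay below (15% of all probe sets). Of the 22 calls 11 were kept under every omission of 1 array, and 8 members were up without 12 hr replicate 1. The methods' analysis of variance after Benjamini-Hochberg called 8 of 32 members, near its share of all probe sets (22.6%). Further fits, chosen after the data were seen, kept 1 array at each early time, whose spread was then taken from the other times. At those times the members' arrays differed by medians of 0.07 to 0.13, against 0.46 and 0.50 at 2 and 4 hr. Calls of these fits thus carry none of the early spread. Using only the replicate 2 arrays of the early phase, 24 members were up and 3 down (all probe sets, 22.2% up and 21.1% down), including 14 of 15 sterol enzymes, with a median of 0.81 for these enzymes. Using only the replicate 1 arrays, 14 were up and 5 down (18.8% up and 19.4% down), including 7 of 15 sterol enzymes up and 2 down, with a median of 0.25. The difference between these fits was not tested itself.

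**Figure D4:**
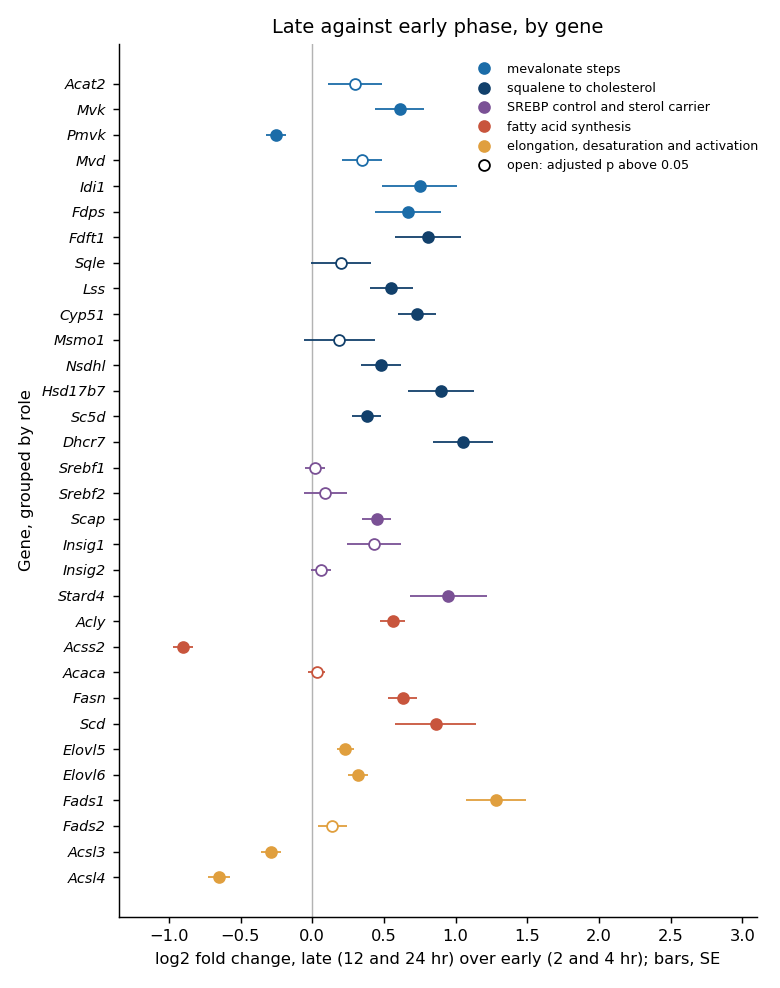
Log2 fold change of the late phase (12 and 24 hr) over the early phase (2 and 4 hr) for 32 genes, grouped by role from top to bottom; bars are standard errors and open circles have an adjusted p above 0.05. Filled circles lie right of 0 for 18 genes and left of 0 for Pmvk, Acss2, Acsl3, and Acsl4.

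Among the 6 mevalonate steps measured, no member was up-regulated at a single time against 0 hr and 2 were down-regulated. Pmvk, which adds the second phosphate to mevalonate, had intensities of 319 and 370 at 0 hr, 297.5 and 291.9 at 2 hr, 252 and 234 at 4 hr, 220.4 and 215 at 12 hr, and 238 and 229.5 at 24 hr. All 8 treated arrays lay below both 0 hr arrays, and the late arrays overlapped the 4 hr arrays. Pmvk fell by 0.50, 0.66, and 0.56 on the log2 scale at 4, 12, and 24 hr (SE 0.10, adjusted p between 0.0019 and 0.006). Its 12 and 24 hr calls held when any 1 array was left out. Acat2, the cytosolic thiolase that opens the pathway, had intensities of 989.7 and 1141 at 0 hr, 766.7 and 665 at 2 hr, 818 and 406 at 4 hr, 756 and 763 at 12 hr, and 861 and 787 at 24 hr. It was called down only at 4 hr (-0.88, SE 0.27, adjusted p = 0.042), and this call was kept in 1 of 10 omissions.

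Idi1 and Fdps, which make and join the isoprene units, are shown although the rule for per-array values did not name them. Idi1 had intensities of 1735 and 2331 at 0 hr, 2696 and 1773 at 2 hr, 3220 and 1309 at 4 hr, 3200 and 3274 at 12 hr, and 3734 and 4081 at 24 hr. The late arrays lay above both 0 hr arrays, the replicate 1 early arrays did too, and of the replicate 2 early arrays the 4 hr one lay below both. Fdps had intensities of 2225 and 2659 at 0 hr, 3302 and 1812 at 2 hr, 3396 and 1752 at 4 hr, 4216 and 3809 at 12 hr, and 3643 and 3913 at 24 hr, with the late and the replicate 1 early arrays above both 0 hr arrays and the replicate 2 early arrays below them. Late against early, Idi1 was up by 0.75 (SE 0.26, adjusted p = 0.049) and Fdps by 0.67 (SE 0.23, adjusted p = 0.047). Both calls were kept in 2 of 10 omissions, and with only the replicate 1 early arrays the differences were 0.27 and 0.22 and neither was called. Mvk was up late against early by 0.61 (SE 0.17, adjusted p = 0.017), and its difference was 0.30 with only the replicate 1 early arrays. Mvd differed by 0.35 with an adjusted p above the limit.

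From squalene to cholesterol, all 9 enzymes had positive late against early differences and 7 of them were called. Of all 31042 probe sets, 16995 were positive and 19.9% were called up. With only the replicate 1 early arrays Sqle (-0.21) and Msmo1 (-0.29) were negative, so the common sign rested on the replicate 2 early arrays. Hsd17b7, which reduces the keto sterol formed during removal of the methyl groups of lanosterol, changed most. Its intensities were 77.6 and 99.7 at 0 hr, 184 and 103 at 2 hr, 262 and 135 at 4 hr, 279 and 304 at 12 hr, and 301 and 320 at 24 hr. All 8 treated arrays lay above both 0 hr arrays, and the late arrays lay above all early arrays. It rose 2.14-fold at 4 hr, 3.31-fold at 12 hr, and 3.53-fold at 24 hr (log2 fold changes of 1.10, 1.73, and 1.82, SE 0.33, adjusted p of 0.041, 0.0069, and 0.0053). The 24 hr call held under all 10 omissions, whereas the 4 hr call held in 3 and the 12 hr call in 8.

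Dhcr7, which carries out the last reduction to cholesterol, went the other way in the early phase. Its intensities were 960 and 1138 at 0 hr, 692.7 and 476 at 2 hr, 556 and 271 at 4 hr, 888 and 822 at 12 hr, and 1081 and 1162 at 24 hr. The early arrays all lay below both 0 hr arrays, the 12 hr arrays also lay below them, and the 24 hr arrays overlapped them. Dhcr7 fell at 4 hr by 1.43 on the log2 scale (SE 0.30, adjusted p = 0.0088), and late against early it was up by 1.05 (SE 0.21, adjusted p = 0.0042). With only the replicate 1 early arrays the late difference was 0.66. Sc5d, the desaturase before it, had intensities of 770 and 827 at 0 hr, 566 and 548 at 2 hr, 643 and 458 at 4 hr, 703.5 and 682 at 12 hr, and 729.9 and 748 at 24 hr. It fell by 0.52 at 2 hr and by 0.56 at 4 hr (SE 0.14, adjusted p of 0.038 and 0.022), calls that were kept in 2 and 7 of 10 omissions.

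Cyp51, the lanosterol demethylase, had intensities of 1047 and 1049 at 0 hr, 1145 and 812.5 at 2 hr, 1083 and 780 at 4 hr, 1461 and 1473 at 12 hr, and 1575 and 1752 at 24 hr. Its late arrays lay above all others, and it was up by 0.66 at 24 hr (SE 0.18, adjusted p = 0.035, kept in 4 of 10 omissions) and by 0.73 late against early (SE 0.13, adjusted p = 0.0023, kept in all 10). Squalene synthase Fdft1, lanosterol synthase Lss, and the decarboxylating Nsdhl were up late against early by 0.81, 0.55, and 0.48, with adjusted p of 0.02, 0.02, and 0.027. Sqle and Msmo1 differed by 0.20 and 0.19 and were not called. For Msmo1 the sign depended on which early arrays were used. Late against early it was 0.66 with only the replicate 2 early arrays and -0.29 with only the replicate 1 early arrays. In replicate 1 the Sqle intensity reached 1028 at 4 hr, above all 4 late arrays.

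Among the SREBP regulators, Scap was up-regulated at both late times, Srebf1 at 24 hr only, and Srebf2 at none. Scap had intensities of 686 and 689 at 0 hr, 819.5 and 628 at 2 hr, 903.5 and 792 at 4 hr, 1208 and 1054 at 12 hr, and 979 and 1017 at 24 hr. Its late arrays lay above all others, and it was up by 0.71 at 12 hr and 0.54 at 24 hr (SE 0.14, adjusted p of 0.0071 and 0.024, kept in 8 and 6 of 10 omissions). Srebf1 had intensities of 887 and 856 at 0 hr, 1124 and 1028 at 2 hr, 1028 and 1086 at 4 hr, 1056 and 939.5 at 12 hr, and 1201 and 1135 at 24 hr. All 8 treated arrays of Srebf1 lay above the 0 hr arrays, but only 24 hr was called (0.42, SE 0.10, adjusted p = 0.015, kept in 6 of 10 omissions). Srebf2, which favors the sterol genes, ranged from 742 to 1133 and was not called in any comparison, and its 0 hr arrays differed by 0.47. Insig2 was not called either. Insig1, itself an SREBP target, read 1150 and 829.5 at 2 hr, 955 and 495 at 4 hr, and between 1067 and 1138 on the 4 late arrays, against 703 and 784.5 at 0 hr.

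Stard4, a carrier of cholesterol within the cell, had intensities of 332 and 365 at 0 hr, 284 and 161 at 2 hr, 342.5 and 139 at 4 hr, 440 and 402 at 12 hr, and 418 and 411 at 24 hr. Its late arrays lay above all others. Late against early it was up by 0.95 (SE 0.27, adjusted p = 0.021), a call kept in 5 of 10 omissions. The difference was 0.42 with only the replicate 1 early arrays.

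In the fatty acid arm, Acss2 had the largest called change of all members, and it was a fall. Acss2 makes cytosolic acetyl-CoA from acetate and is known as an SREBP target. Its intensities were 365 and 414 at 0 hr, 254.5 and 249 at 2 hr, 202 and 187.5 at 4 hr, 97.7 and 86.5 at 12 hr, and 154.9 and 152.5 at 24 hr. No 2 neighboring times overlapped. It fell 1.54-fold at 2 hr, 2-fold at 4 hr, 4.23-fold at 12 hr, and 2.53-fold at 24 hr (SE of the log2 value 0.10, adjusted p between 1.9e-05 and 0.0041), and all 4 calls held under all 10 omissions. It was the only member called between 24 and 12 hr, with a rise of 0.74 (SE 0.10, adjusted p = 0.0065), where 2.22% of all probe sets were up and 2.12% down. By limma 0 members were called down between these times (1 at unadjusted p under 0.05). This call was lost without 12 hr replicate 2.

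Of the other 4 genes of fatty acid synthesis, 0 were called down against 0 hr by limma, although Acly had log2 fold changes of -0.41 at 2 hr and -0.37 at 4 hr (unadjusted p of 0.014 and 0.023, adjusted p of 0.069 and 0.08) and Acaca one of -0.23 at 12 hr (unadjusted p = 0.024, adjusted p = 0.098). Acly, which makes the same acetyl-CoA from citrate, was up late against early by 0.56 (SE 0.09, adjusted p = 0.0016) with late intensities of 2269 to 2728 and early intensities of 1449 to 1897. Fatty acid synthase, Fasn, had intensities of 2075 and 2041 at 0 hr, 1913 and 1605 at 2 hr, 2103 and 1633 at 4 hr, 2797 and 2514 at 12 hr, and 2863 and 2993 at 24 hr. Its late arrays lay above all others. It was up by 0.51 at 24 hr (SE 0.14, adjusted p = 0.03, kept in 6 of 10 omissions) and by 0.63 late against early (SE 0.10, adjusted p = 0.001, kept in all 10). Acaca, the carboxylase, ranged from 1136 to 1383 over all arrays on the probe set used, which was not called in any comparison. Its other probe set, which is dim (mean log2 intensity 4.75), was called down at 2 hr (-0.57) and 4 hr (-0.41) and up late against early (0.39), with adjusted p of 0.011, 0.032, and 0.0049. Scd, the stearoyl-CoA desaturase, had intensities of 67.9 and 75.0 at 0 hr, 141 and 60.6 at 2 hr, 145.5 and 70.1 at 4 hr, 178 and 174 at 12 hr, and 164 and 184 at 24 hr. It was up late against early by 0.86 (SE 0.28, adjusted p = 0.039, kept in 2 of 10 omissions). The signal of Scd is uncertain, since its close paralog Scd2 read 5041 to 7607 on the same arrays.

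The genes of chain elongation, desaturation, and activation split by direction. Acsl4, an acyl-CoA synthetase that prefers arachidonic acid, peaked in the early phase with intensities of 972 and 924 at 0 hr, 1630 and 1759 at 2 hr, 2196 and 2042 at 4 hr, 1215 and 1243 at 12 hr, and 1085 and 1300 at 24 hr. The early arrays lay above all others. It rose 1.79-fold at 2 hr and 2.23-fold at 4 hr (log2 fold changes of 0.84 and 1.16, SE 0.11, adjusted p of 0.0014 and 1.7e-04), held under all 10 omissions, and was 0.37 higher at 12 hr (adjusted p = 0.04, kept in 6 of 10). Acsl3, a related synthetase that feeds lipid droplets, had intensities of 820 and 820 at 0 hr, 1038 and 1080 at 2 hr, 1199 and 1022 at 4 hr, 825 and 847 at 12 hr, and 899 and 985 at 24 hr. It rose by 0.37 at 2 hr and 0.43 at 4 hr (SE 0.10, adjusted p of 0.036 and 0.014, kept in 4 and 7 of 10 omissions). These were the only members up at 2 hr, and they differed by at most 0.23 between the 2 arrays of each early time.

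Elovl6, which elongates saturated chains, had intensities of 1806 and 1816 at 0 hr, 1243 and 1192 at 2 hr, 862.5 and 1001 at 4 hr, 1226 and 1387 at 12 hr, and 1385 and 1308 at 24 hr. All 8 treated arrays lay below both 0 hr arrays. It fell by 0.57, 0.96, 0.47, and 0.43 at 2, 4, 12, and 24 hr (SE 0.10, adjusted p of 0.0071, 3.6e-04, 0.013, and 0.02), and the 4 hr call held under all 10 omissions. Fads1, a desaturase of polyunsaturated chains, had intensities of 1119 and 1309 at 0 hr, 908 and 547.5 at 2 hr, 806 and 429 at 4 hr, 1730 and 1803 at 12 hr, and 1367 and 1400 at 24 hr. The early arrays lay below both 0 hr arrays and the late arrays above them. It fell at 4 hr by 1.04 (SE 0.30, adjusted p = 0.033, kept in 3 of 10 omissions). Late against early it was up by 1.28 (SE 0.21, adjusted p = 0.0014), and the difference was 0.87 with only the replicate 1 early arrays. Elovl5 was the only member called between 4 and 2 hr (0.40, SE 0.09, adjusted p = 0.048, kept in 1 of 10 omissions), where 2.24% of all probe sets were up and 1.5% down. By limma 0 members were called down there (4 at unadjusted p under 0.05).

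**Figure D5:**
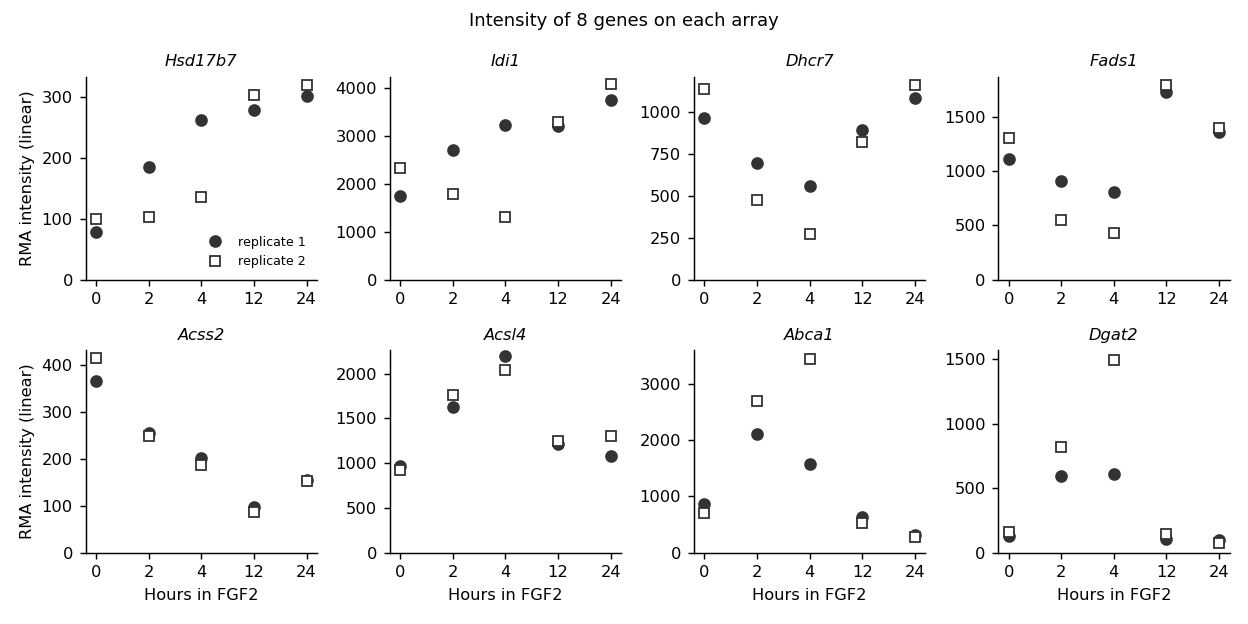
Linear RMA intensity of 8 genes on each array against hours in FGF2 (evenly spaced); filled circles are replicate 1 and open squares replicate 2, and each vertical axis starts at 0. Hsd17b7 and Idi1 are highest at 24 hr, Dhcr7 and Fads1 dip in the early phase, Acss2 is lowest at 12 hr (97.7 and 86.5), and Acsl4, Abca1, and Dgat2 are highest in the early phase.

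Over the 10 arrays the sterol enzymes tracked each other. Of their 105 pairs 91 correlated positively, with a median Pearson's r of 0.69, whereas the 55 pairs of fatty acid enzymes had a median of 0.08 and 30 positive pairs. The points share the replicate difference of the early arrays described above, so these values are a description only. Closest to the mean of the other sterol enzymes were Fdft1 (r = 0.97) and Lss (0.96), and outside these enzymes Stard4 (0.97), Fads1 (0.90), and Fasn (0.87). Acsl4 (-0.46), Acss2 (-0.41), Acsl3 (-0.34), and the sterol enzyme Pmvk (-0.33) ran against it.

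Of the 32 members 17 have more than 1 probe set. For the 30 calls made on these genes, another probe set of the gene was called in the same direction for 19, all others had the same sign for 28, and 0 had a call in the opposite direction. Elovl5 was the exception in sign: its other probe set went the opposite way at 4 hr against 0 hr and late against early. The remaining 15 members have a single probe set, Acss2, Dhcr7, Acsl4, Acsl3, and Fads1 among them.

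Other genes of the pathway were taken from lists by role. Of 12 measured genes of 16 listed in sterol synthesis and SREBP processing, the numbers up and down were 1 and 1 at 2 hr, 0 and 3 at 4 hr, 1 and 1 at 12 hr, and 1 and 0 at 24 hr, and late against early 5 and 3. Of all probe sets 8.61% were up and 8.88% down at 2 hr, 11.9% up and 11.9% down at 4 hr, 8.94% up and 10% down at 12 hr, 9.29% up and 10.9% down at 24 hr, and 19.9% up and 19.3% down late against early. Tm7sf2, a sterol reductase, had intensities of 655 and 692 at 0 hr, 721 and 653 at 2 hr, 677 and 636 at 4 hr, 1146 and 942 at 12 hr, and 1631 and 1680 at 24 hr. It rose by 0.63 at 12 hr and 1.30 at 24 hr (SE 0.11, adjusted p of 0.005 and 1.6e-04). Mbtps2, one of the proteases that release SREBP, fell by 0.50 at 2 hr and 0.49 at 4 hr (SE 0.09, adjusted p of 0.0055 and 0.0037). Ebp, the sterol isomerase, fell by 0.55 at 4 hr (adjusted p = 0.041), and Tmem97, a sterol-regulated membrane protein, was up late against early by 1.09 (adjusted p = 0.0013).

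Among genes of sterol uptake, efflux, and LXR response, several were up in the early phase, although the list's median log2 fold change was 0.03 at both early times. Of 18 measured genes of 21 listed, 5 were up and 1 down at 2 hr, 6 and 1 at 4 hr, 2 and 1 at 12 hr, 0 and 2 at 24 hr, and late against early 2 and 5. Of all probe sets 8.61% were up at 2 hr, 11.9% at 4 hr, and 19.9% late against early, where 19.3% were down. Abca1 rose 3.04-fold at 2 hr and 2.97-fold at 4 hr (adjusted p of 0.0092 and 0.0068) and fell 2.64-fold at 24 hr (adjusted p = 0.013). Abcg1 rose by 0.80 and 0.85 and Mylip by 1.14 and 1.01 at 2 and 4 hr, and neither was called at 12 or 24 hr. Scarb1, a lipoprotein receptor, rose by 0.43, 0.87, and 0.66 at 2, 4, and 12 hr. Among 22 genes of 25 listed in other fatty acid and lipid synthesis, 4 were up and 2 down at 2 hr, 5 and 3 at 4 hr, 4 and 0 at 12 hr, and 2 and 2 at 24 hr, where the shares of all probe sets were 8.61% and 8.88%, 11.9% and 11.9%, 8.94% and 10%, and 9.29% and 10.9%. Dgat2 rose 4.88-fold at 2 hr and 6.71-fold at 4 hr (SE of the log2 value 0.37, adjusted p of 0.0044 and 0.0011) and was not called later.

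Genes of fatty acid oxidation were more often called down than up. Of 17 measured genes of 18 listed, 2 were up and 6 down at 2 hr, 1 and 7 at 4 hr, 0 and 7 at 12 hr, and 0 and 8 at 24 hr, against all-probe-set shares of 8.61% up and 8.88% down, 11.9% up and 11.9% down, 8.94% up and 10% down, and 9.29% up and 10.9% down at these times. The largest falls were those of Pdk4, a brake on glucose oxidation, and Acot1, an acyl-CoA thioesterase. Pdk4 had intensities of 1834 and 1573 at 0 hr, 883 and 1383 at 2 hr, 264 and 362.5 at 4 hr, 337 and 223 at 12 hr, and 178 and 106 at 24 hr, and fell 5.49-, 6.19-, and 12.3-fold at 4, 12, and 24 hr (adjusted p between 1.6e-04 and 7.9e-04). Acot1 fell 2.41-, 6-, 4.41-, and 3.8-fold at 2, 4, 12, and 24 hr (adjusted p between 1.9e-05 and 8.1e-04). Acadm, which opens the oxidation of medium chains, fell at all 4 times by 0.35 to 0.61 on the log2 scale. The oxidation genes had replicate 2 below replicate 1 in 9 of 17 at 2 hr and 5 of 17 at 4 hr.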

How the data were processed

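The authors deposited intensity values from RMA, whose version is not given in the sources used here. They are linear and were taken to log2, and 57 array controls were left out. The deposited probe sets are those of the Rat Genome 230 2.0 array, whereas the methods name another array. For each of 31042 probe sets a mean per time point was fitted over 10 arrays (limma 3.58.1 in R 4.3.3, lmFit and eBayes, 5 residual and 3.69 prior degrees of freedom, prior SD 0.116), and p-values were adjusted by Benjamini-Hochberg over all probe sets. Late against early is the mean of 12 and 24 hr minus the mean of 2 and 4 hr. The 2 arrays per time point limit the precision. The fit was also run on simulated data with independent noise, the same spread at all times, and changes only at 12 hr. These data lack the larger and shared spread of the early arrays, so they do not test the fit there.

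The members, lists, and tests were chosen with earlier results of these data known. Each gene has its brightest probe set with a single symbol. Per-array values follow a rule, the 4 members of each role with the largest called change against 0 hr, and those of other genes were chosen after their values were seen. Alternatives were a fold minimum of 1.25, a replicate block, quantile normalization, leaving out the dimmest 33.3% of probe sets, the mean of all probe sets of a gene, the methods' analysis of variance, each array left out in turn, and, chosen after seeing the data, fits without both early times, without both replicate 1 or both replicate 2 early arrays, and with the Actb ratio as a covariate. Figures used Python 3.11.15 and matplotlib 3.10.9. Promoters came from RefSeq (GRCr8), by symbol.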

Additional observations from a re-analysis of the deposited data

Results flagged for a closer look

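Differences between phases or neighboring times that passed the test of the difference itself drew attention in 24 cases. Late against early, the sterol enzymes with a positive difference were Mvk (0.61), Idi1 (0.75), Fdps (0.67), Fdft1 (0.81), Lss (0.55), Cyp51 (0.73), Nsdhl (0.48), Hsd17b7 (0.90), Sc5d (0.38), and Dhcr7 (1.05), on the log2 scale. So were Scap (0.45) and Stard4 (0.95), and in the fatty acid arm Acly (0.56), Fasn (0.63), Scd (0.86), Elovl5 (0.23), Elovl6 (0.32), and Fads1 (1.28). The other probe set of Elovl5 had the opposite sign in this comparison. Negative differences were found for Pmvk (-0.25), Acss2 (-0.90), Acsl3 (-0.29), and Acsl4 (-0.65). Within a phase, Acss2 was higher at 24 than at 12 hr (0.74) and Elovl5 at 4 than at 2 hr (0.40). With 2 arrays per time point no single array could be tested as an outlier.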

How the results depend on the processing

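Of 55 calls of members, 21 were kept under all 10 omissions of 1 array. Counts of members under these omissions ranged as follows: 2 hr, 1 to 2 up and 1 to 6 down; 4 hr, 1 to 5 up and 2 to 9 down; 12 hr, 0 to 9 up (0 without 0 hr replicate 1) and 2 to 4 down; 24 hr, 1 to 9 up (1 on leaving out 24 hr replicate 2 or 1 of the 0 hr arrays) and 2 to 4 down; 4 against 2 hr, 0 to 1 up and 0 to 3 down; 24 against 12 hr, 0 to 1 up and 0 to 0 down; late against early, 8 to 23 up (8 without 12 hr replicate 1) and 3 to 4 down. An omission leaves 1 array at a time point, which is then assumed to vary like the others.

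The fold minimum of the methods left 2 down late against early. Same-numbered arrays deviated together between 2 and 4 hr (r = 0.33) but not between other times (r of -0.15 to 0.00), and the labels do not say whether the early arrays of 1 number came from the same culture, so the numbers were not taken to pair the samples. With a replicate block 1 was up at 2 hr and 0 between 4 and 2 hr, and the block moved no other count of members by over 1.5 times. Quantile normalization gave 0 up between 4 and 2 hr, and without the dimmest probe sets 8 were up at 24 hr. The mean of all probe sets gave 2 up at 4 hr and 0 between 4 and 2 hr. The methods' analysis of variance, unadjusted, gave 4 down at 4 hr, 15 up and 5 down at 12 hr, 12 up at 24 hr, 2 down between 4 and 2 hr, and 3 up and 2 down between 24 and 12 hr. Unadjusted, it called 22.9, 29.1, 26.4, 7.57, and 14.7% of all probe sets, up or down, in these comparisons in turn. After Benjamini-Hochberg it called 0 members at a single time, where it called at most 0.00966% of all probe sets. Late against early it then called 8 of 32 members, near its share of all probe sets (22.6%). Without the 2 and 4 hr arrays 18 were up at 12 hr, 13 up at 24 hr, and 1 down between 24 and 12 hr. Without both replicate 2 early arrays 7 were up and 6 down at 2 hr, 10 up at 4 hr, 18 up at 12 hr, 13 up at 24 hr, 0 up between 4 and 2 hr, and 1 down between 24 and 12 hr. Without both replicate 1 early arrays 15 were down at 2 hr, 2 up and 17 down at 4 hr, 18 up at 12 hr, 13 up at 24 hr, 0 up and 4 down between 4 and 2 hr, and 1 down between 24 and 12 hr. With the Actb ratio as a covariate 8 were up and 1 down at 2 hr, 8 up and 4 down at 4 hr, 19 up at 12 hr, 18 up at 24 hr, 0 up and 2 down between 4 and 2 hr, and 3 up between 24 and 12 hr. No share of all probe sets was obtained for the counts of this fit after 4 hr. None was obtained either for the counts here without both replicate 1 or both replicate 2 early arrays. These counts therefore do not show whether members gained more calls than other probe sets did.

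Single values that were called with the opposite sign under an alternative were Stard4 between 24 and 12 hr with the covariate (0.76), Idi1 (-0.62), Fdps (-0.47), and Msmo1 (-0.44) at 4 hr without both replicate 1 early arrays, and Insig1 at 4 hr (0.36) and Msmo1 late against early (-0.29) without both replicate 2 early arrays. Except for the omissions of arrays, which test fewer samples, the cause was not tested. Signal limits Fads2, the 1 member among the dimmest probe sets.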
